A study of Drosophila melanogaster with 6 samples.

Results

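The genes described here are genes of the fruit fly Drosophila melanogaster that are still known only by an annotation number (CG plus digits) and whose signals were lower in embryos without normal maternal zelda (zld). Of 5667 probe sets with exactly 1 gene symbol of that form, 44 had a highest mutant signal at most 0.7 times their lowest control signal and a control mean of 40 or more. Of these, 6 belong to 8 genes that the rule left out, so that 38 probe sets of 38 genes remained. The array holds 18952 probe sets in all, 18769 of them not controls. The members were thus chosen by the signals of the same 6 arrays that are given below. Levels and differences between the groups are therefore a description of the chosen genes, and no test is drawn from them.

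Total RNA of embryos collected at 1 to 2 h was measured on Affymetrix Drosophila Genome 2 arrays, with 3 arrays a group. The mutant group came from mothers with germ-line clones for zld, meaning that the cells that make the eggs were mutant while the mother's other tissues need not have been. The labels name no allele, and they do not give the copy of zld that an embryo may receive from its father. The control group was yw, a stock with mutations in the body colour gene yellow and the eye colour gene white, labelled as wild type, so any other difference in stock between the groups cannot be told apart from zld. A sample of the embryos was stained, and the series text puts 90% of it in nuclear cycles 8 to 13. The zld signal itself was 263.1, 195.7 and 214.9 on the mutant arrays and 1023.2, 1062.4 and 966.8 on the yw arrays, in the order of replicates 1, 2 and 3, which is used for all values below (log2 difference -2.11, adjusted p = 0.000192, limma).

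Zelda is a zinc finger protein that the mother supplies to the egg. It binds near many genes that the embryo itself transcribes first, while most of the RNA in the embryo is still of maternal origin, and it is known for opening chromatin at those genes. Many of these earliest transcripts come from short genes with few or no introns, which can be completed within the brief syncytial nuclear cycles, and a good number of them have no assigned function. The annotation gives a current gene symbol for all 38 members, and for all 38 that symbol is still a CG number.

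The members were mostly dim to moderately bright. The mean yw signal was between 40 and 100 for 21 of them, between 100 and 200 for 6 and above 200 for 11, with a median of 95.6. For comparison, the median over the 7207 probe sets with a yw mean of 40 or more was 317. The array also carries 27 probe sets for Bacillus genes. Their median signal was 3.4 and 95 in 100 of their values were below 18.1, and signals under 18.1 are called background here. On all 3 mutant arrays 13 members lay below it, and 1 member, CG12420, had a yw array below it.

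The members differed widely in how much signal was left in the mutant embryos. The share left is given as the mutant mean in percent of the yw mean, after mutant signals under 18.1 were raised to that level. It is only an upper limit for the 13 members with all mutant arrays at background and the 9 with some of them there. Read in this way, at most 10% was left for 9 members, between 10 and 30% for 5, between 30 and 50% for 21 and at least 50% for 3. The upper limit was between 33.3 and 45.1% for 6 dim members at background on all mutant arrays, so a smaller share could not be told from background there. On the log2(signal + 16) scale the differences, mutant minus yw, ran from -4.43 to -0.53 with a median of -1.16, and the median over all probe sets tested was -0.05. At an adjusted p under 0.05 (limma, Benjamini-Hochberg over all probe sets), 24 of the 38 were called lower, against 0.778% of all probe sets and 1.75% of those with a yw mean of 40 or more. Of CG-numbered probe sets 0.794% were called lower, and of those with another symbol 1.03%. The 3 mutant arrays lay below the 3 yw arrays for 13.6% of all probe sets, and 0.868% met the ratio of 0.7 and the yw mean of 40. Since the rule used this contrast, the count is given without a reading. It was 14, 12 and 10 without mutant replicate 1, 2 or 3, 15 and 14 without yw replicate 1 or 2, and 10 without yw replicates 1 and 2 together, and the methods' t-test called 0 after adjustment and 37 at an unadjusted p under 0.05.

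**Figure D1:**
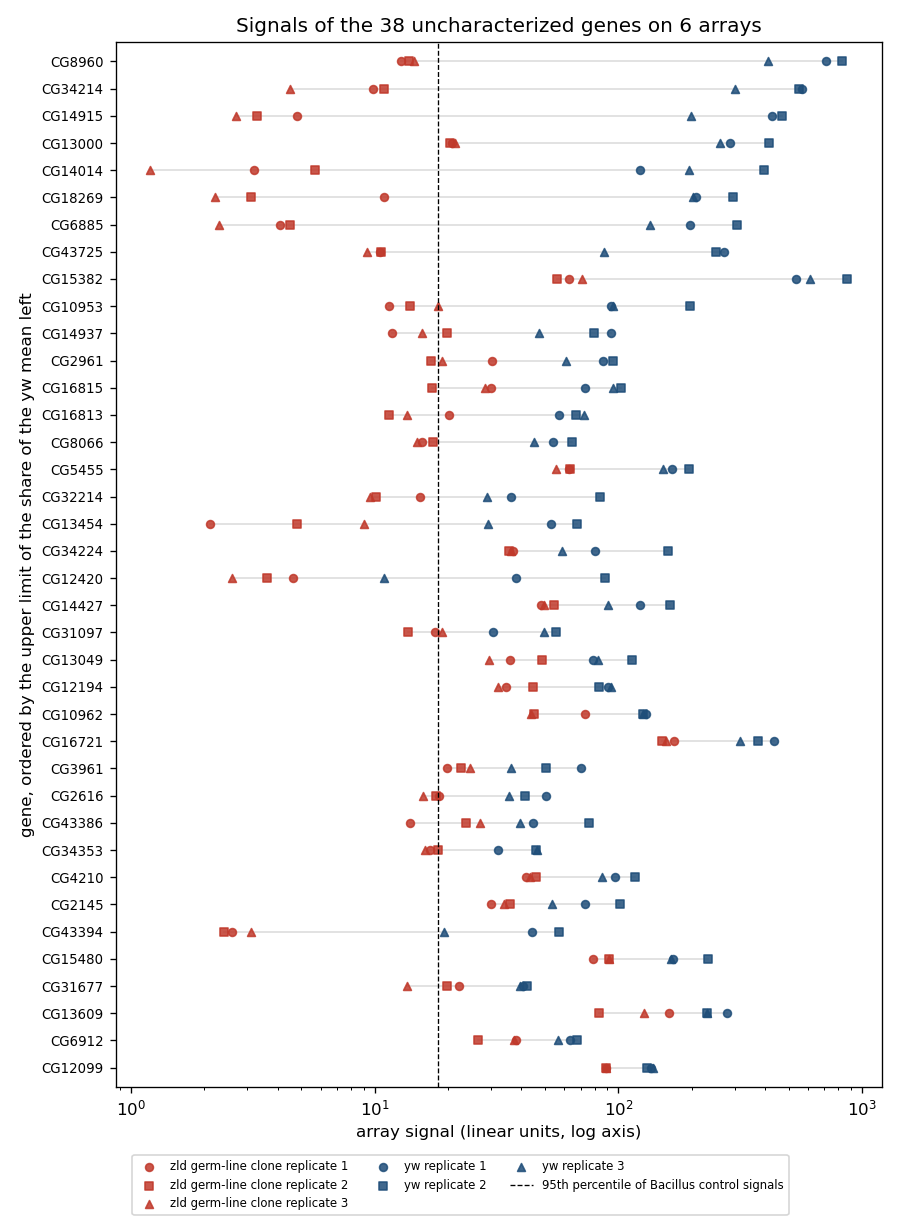
Signals of the 38 genes on the 6 arrays on a log axis, with 1 row a gene, red marks for zld germ-line clone arrays and blue marks for yw arrays, and the dashed line at the 95th percentile of Bacillus control signals (18.1). The genes are ordered by the upper limit of the share of the yw mean left, with mutant signals under the line raised to it, and the order among genes whose mutant signals are at background follows their yw level.

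The 9 genes with at most 10% left all had a yw mean above 200, and their mutant signals were at background for all but CG13000 and CG15382. Since mutant signals were raised to the background level, dim genes could not enter this class, so its brightness follows from the measure. Without the raising, the dim members CG43394 and CG12420 had 6.72 and 7.87% left, against upper limits of 45.1 and 39.6%. Their mutant signals were all at background, so these lower shares are not known either. CG8960 had mutant signals of 12.8, 13.8 and 14.5 and yw signals of 709.7, 827.5 and 411.9. CG14915 had 4.8, 3.3 and 2.7 in the mutant and 427.5, 469.1 and 197.7 in yw. CG34214 had 9.8, 10.9 and 4.5 against 564.4, 552.8 and 300.2. At most 2.79, 4.97 and 3.84% was left of CG8960, CG14915 and CG34214, and yw replicate 3 was the lowest yw array of each. No function is assigned here to any of the 3.

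CG6885 gave 4.1, 4.5 and 2.3 on the mutant arrays and 197.5, 307.2 and 134.3 on the yw arrays. CG14014 gave 3.2, 5.7 and 1.2 against 122.2, 395.5 and 194.1, so its yw arrays spread over a factor of 3.24. CG18269, its neighbour in the genome, gave 10.9, 3.1 and 2.2 against 208.5, 295.6 and 202.2. The yw arrays of CG14014 and CG18269 share their order at the top, with replicate 2 the highest, but not at the bottom. CG43725 had 10.5, 10.6 and 9.3 in the mutant and 270.4, 252.3 and 87.2 in yw, and here yw replicate 3 was 0.33 of the mean of the other yw arrays.

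A measurable signal was left in the mutant for 2 bright genes of this group. CG15382, the brightest member, had mutant signals of 62.5, 55.9 and 70.7, all above background, and yw signals of 537.6, 868.4 and 609.4. CG13000 had mutant signals of 20.8, 20.3 and 21.3, just above background and nearly equal, and yw signals of 285.9, 414.9 and 260. Their log2 differences were -3.10 (SE 0.174) and -3.16 (SE 0.177).

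Between 10 and 30% at most was left for 5 genes, with yw means of 65.3 to 129 and at least 1 mutant array at background in each. CG10953 was the brightest of them, with 93.4, 197.1 and 95.4 in yw and 11.4, 14 and 18.2 in the mutant. CG14937, which carries an F-box protein name (FBXO17) among its synonyms and so belongs to a family known for choosing proteins for ubiquitin tagging, had 93, 79.4 and 47.3 in yw and 11.8, 19.8 and 15.7 in the mutant. In both genes 2 mutant arrays were at background. CG2961 had 86.7, 95.2 and 61 in yw and 30.4, 17 and 18.9 in the mutant, with mutant replicate 1 the highest. CG16813 and CG16815 are described with their neighbour CG15480.

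Of the 21 genes with an upper limit between 30 and 50%, 6 were dim in yw and at background on all mutant arrays, so how much was left is not known. CG43394 had 44.1, 57.3 and 19.2 in yw and CG12420 had 38, 88.4 and 10.9, with all mutant signals of both at or below 4.6. CG12420 was the member whose yw arrays differed most, by a factor of 8.11. CG8066, whose nearest measured neighbours are CG31313 and CG7987, had 53.9, 64.3 and 45.1 in yw and 15.6, 17.4 and 14.9 in the mutant. CG13454, CG32214 and CG34353 had yw means of 49.9, 49.8 and 41.4, and the yw arrays of CG32214 ran from 29 to 84.

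The others had at least 1 mutant array above background. CG16721 was the brightest of these, with 434.3, 375.7 and 316.5 in yw and 169.8, 151.1 and 157.3 in the mutant, both far above background and both narrow. CG5455 had 165.5, 195.1 and 151.7 in yw and 62.7, 63.5 and 55.2 in the mutant. The log2 differences of these genes were -1.15 (SE 0.124) and -1.28 (SE 0.132). CG10962, of the short-chain dehydrogenase family, had almost equal yw signals of 130, 126.3 and 126.3, while its mutant signals of 72.8, 45 and 43.9 set replicate 1 apart. CG4210, of the N-acetyltransferase family, had 97.2, 117.1 and 85.5 in yw and 41.8, 45.9 and 43.5 in the mutant.

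CG12194 had 90.4, 83.6 and 92.9 in yw and 34.7, 44.8 and 32.1 in the mutant, and its yw replicate 3 was the highest yw array. CG34224 had mutant signals within 35.7 to 36.8 but yw signals of 80.3, 160.1 and 58.8, so that its spread was all on the yw side. CG3961, listed with long-chain acyl-CoA synthetase synonyms (ACSL1, ACSL5), enzymes that activate fatty acids, had 69.9, 50.3 and 36.4 in yw and 19.7, 22.5 and 24.5 in the mutant. CG2616, of the mitochondrial carrier family, had 50.5, 41.4 and 35.4 in yw and mutant signals from 15.8 to 18.3. For CG13049, CG2145 and CG14427 the yw means were 91.4, 75.8 and 126 and the mutant means 38, 33.3 and 50.6. CG31677 and CG31097 were dimmer, with yw means of 40.8 and 45.2, and their mutant means of 18.5 and 16.7 lay at about background.

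At or above 50% was left for CG6912, CG13609 and CG12099. The mutant signals of CG12099 were 88.9, 89.2 and 88.8 and its yw signals 136.1, 131.1 and 139.1, the tightest pair of groups among the members. CG6912 had 38, 26.6 and 37.3 against 63, 67.3 and 56.3. CG13609 had 161.5, 83.1 and 127 against 280, 231.4 and 231.8, and its mutant arrays differed by a factor of 1.94. None of these 3 was among the 24 calls.

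The threshold of 0.7 does not fall in a gap. The members nearest to it were CG12099, CG43386 and CG13609, with ratios of the highest mutant to the lowest yw signal of 0.68, 0.682 and 0.698, and the CG-numbered probe sets just outside were those of CG13545 (0.7 after rounding), CG18586 (0.702) and CG32797 (0.703). CG18586 had 162.4, 167.2 and 182.7 in the mutant and 260.1, 263 and 265.9 in yw. At the floor of 40, CG43394 and CG31677 were just inside with yw means of 40.2 and 40.8, and CG9119 and CG7714 just below with 39 and 38.5. At the other end, 11 members had a ratio below 0.2, and the next ratio was 0.309 for CG13454; ratios with a mutant signal at background have no order.

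**Figure D2:**
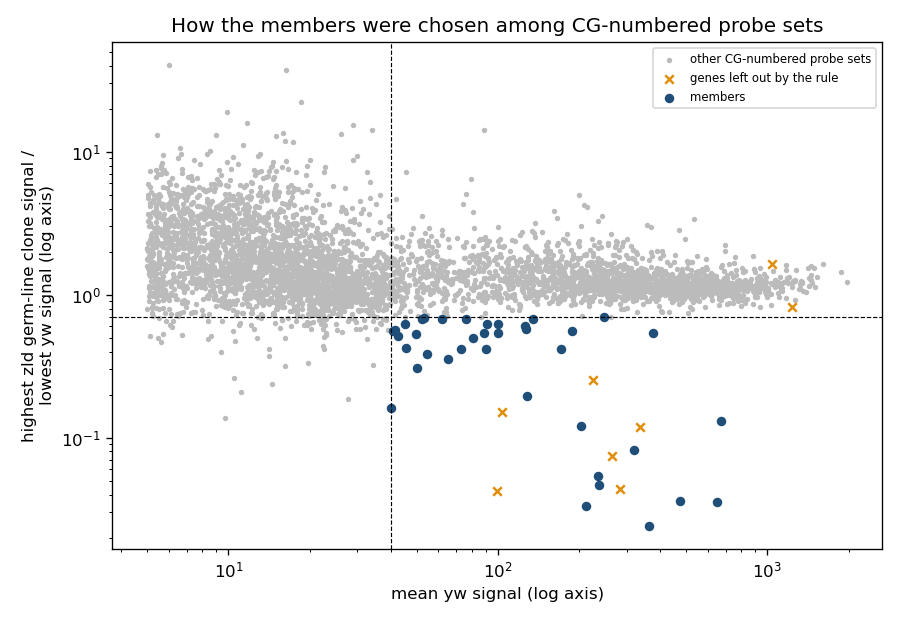
Each point is a CG-numbered probe set with a yw mean of 5 or more, placed by its mean yw signal and by the ratio of its highest mutant to its lowest yw signal, both on log axes, with dashed lines at the thresholds of 40 and 0.7. The members (blue) lie between 0.698 and 0.309 and below 0.2, where most mutant signals are at background, and the left-out genes (orange crosses) include 6 below the threshold and 2 above it.

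CG-numbered and other named genes met the ratio about equally often. Among probe sets with a yw mean of 40 or more, 44 of 1914 CG-numbered ones (2.30%) met the ratio of 0.7, and 99 of 4319 with another symbol did (2.29%). The CG-numbered genes reached that yw mean less often, in 33.8% of probe sets against 54.1%. Both comparisons are counts over probe sets of the same arrays and were not tested.

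Named genes that the early embryo transcribes were set beside the members. Of 47 measured genes of a list of 54, among them cellularization, dorsal ectoderm, proneural and segmentation genes, 27 were called lower and 0 higher (limma; 0.863% of all probe sets were called higher), with a median log2 difference of -1.01. The list was written with earlier results of these arrays known, so its direction is not independent. The count was 16, 15 and 14 without mutant replicate 1, 2 or 3 and 11 without yw replicates 1 and 2. The BMP ligand gene scw, at -3.96, and the insulator subunit gene Elba3, at -3.61, had differences of the size seen in the strongest members, while the gap gene Kr, at -0.42, was not called. Of 18 measured maternal transcripts 0 were called lower (limma; also 0 by the methods' t-test after adjustment) and their median difference was 0.07.

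The yw arrays differed among themselves in the members. Replicate 2 was the highest yw array for 26 of 38 members and replicate 3 the lowest for 26, where over all probe sets with a yw mean of 40 or more either was the case for 31.2%. The signal on yw replicate 3 was a median of 0.76 of the mean of replicates 1 and 2, against 1.00 over those probe sets, and it was under 0.7 of that mean for 17 members and for 5.45% of those probe sets. CG12420 had the lowest such value, 0.17, followed by CG43725 with 0.33 and CG43394 with 0.38. CG34353, CG16813, CG31097 and CG16815 had values of 1.19, 1.16, 1.15 and 1.09 and so were no lower on yw replicate 3.

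Markers of later embryos, taken as a sum, were also highest on yw replicate 2 and lowest in yw on replicate 3. Of 27 such genes 22 were measured, 0 were called (limma; 4 without yw replicate 3), 8 were at background on all 6 arrays, and their summed signal was 681, 1170 and 409 on yw replicates 1, 2 and 3 and 347 to 389 on the mutant arrays. The muscle gene Mlc1 had 121.9, 149.3 and 34.1 in yw and 17.6 to 23.9 in the mutant, and the basement membrane gene vkg had 56.2, 83.4 and 10.6 against 6.6 to 7.4. Not every marker followed the sum. LanB1 had 39.4, 95 and 41.2 in yw and 45.6, 55.2 and 53.6 in the mutant, and Pxn, dim throughout, was highest on yw replicate 3. Summed over the members, the signal was 6139, 7695 and 4796 on the yw arrays and 1177 to 1291 on the mutant arrays. On yw replicate 3, where the marker sum was close to the mutant ones, the member sum was 3.92 times the mean mutant sum. It was 5.01 and 6.29 times on replicates 1 and 2. For single members, the signal on yw replicate 3 was a median of 2.74 times the mutant mean, and 1.56 times at the lowest. With yw replicate 3 as the only yw array, the median log2 difference of the members was -0.97. The rule held the highest mutant signal of each member to at most 0.7 times its lowest yw signal, replicate 3 included. The direction of these values and a smallest size for them were thus fixed in advance. Whether the fall remains on replicate 3 was therefore not tested by them. The part of the marker genes in the result was not tested beyond these values. Ovary genes, 12 of 12 measured, summed to 136 to 175 on the mutant arrays and 155 to 214 in yw, with 6 at background throughout. In whole embryos, fewer nuclei that transcribe a gene and less RNA per nucleus cannot be told apart.

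**Figure D3:**
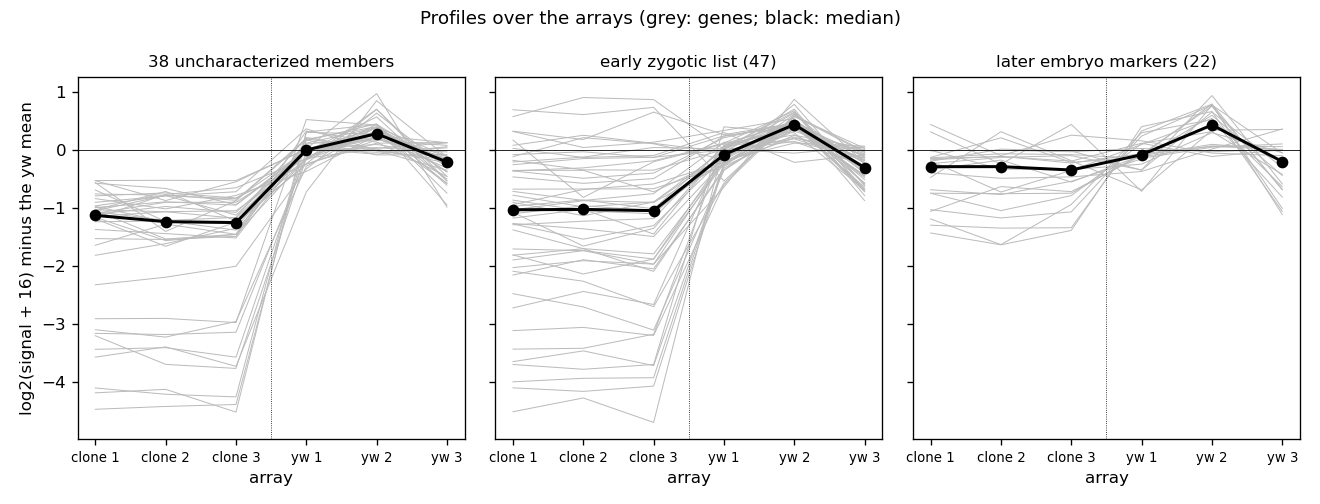
Each grey line is a gene and the black line the median, as log2(signal + 16) minus the gene's yw mean, over zld germ-line clone arrays 1 to 3 and yw arrays 1 to 3, for the 38 members, the 47 measured genes of the early zygotic list and the 22 measured markers of later embryos. The lowest yw value of the members' median is on array 3 and the highest on array 2, and the medians of the other lists have the same order in yw.

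In the order of genes along the chromosomes, 7 members lay beside another member, with no other measured gene between. CG14014 and CG18269 are direct neighbours, and both were at background in the mutant and above 120 on every yw array. On either side, Oscillin and CG14013 were at background in both groups, and Hel25E, an RNA helicase gene further out, was bright in both with means of 1644 in the mutant and 1576 in yw. CG14915 and CG43725 are separated in the annotation by a long noncoding RNA gene without a probe set of its own here. Both lacked a mutant signal above background, and both had their lowest yw signal on replicate 3. The nearest measured genes on either side, CG18666 and AstC, which encodes a neuropeptide, had yw means of 6.1 and 17.4.

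CG15480, CG16813 and CG16815 lie in a row, and at most 46.4, 28.8 and 28.4% was left. CG15480 had 167.1, 232.2 and 164.2 in yw and 78.3, 91.7 and 91.7 in the mutant. CG16813 had 57.2, 66.7 and 72.1 in yw and 20.2, 11.4 and 13.5 in the mutant. CG16815 had 72.6, 102.3 and 94.9 against 30.1, 17.2 and 28.3. The middle and last gene of the row share 2 features that CG15480 lacks: yw replicate 1 was their lowest yw array, and mutant replicate 2 their lowest mutant array. CG16812, before the row, had means of 559 in the mutant and 596 in yw, and Prosalpha6T, after it, was at background in both groups. Mabi, the next gene on, had 53.7, 83.9 and 47 in yw and 26.5, 26.3 and 34.8 in the mutant, with groups that did not overlap and no call (limma, log2 difference -0.75).

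Genes beside the members were called about as rarely as probe sets in general. Of 68 nearest measured neighbours that are no members, 1 was called lower and 0 higher (limma). This is 1.47%, against 0.778% of all probe sets and 1.75% of those with a yw mean of 40 or more. The median log2 difference of the neighbours was -0.10. A yw mean under 40, where a fall is hard to see, was found for 34 of them, and the median of the 34 brighter neighbours was -0.08. The gene called was nullo, which acts on the actin network of forming blastoderm cells and lies beside CG14427. Its signals were 51.7, 41.8 and 27.8 in the mutant and 279.8, 510.2 and 330.4 in yw (log2 difference -2.77, adjusted p = 0.00135, limma), whereas CG14427 had 48, 54.3 and 49.5 against 122.9, 163.5 and 90.2 (log2 difference -1.06, SE 0.197). CG12541, on the other side of CG14427, had yw signals of 30.8, 36.2 and 15.9 and overlapping groups. Another 6 neighbours had differences below -0.5 without a call: CG31313, CG13048, CG13217, CG12662, mex1 and AstC.

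Of the members with at most 10% left, 3 had nearest measured genes on both sides that were bright on all arrays and not called. CG15382 lies between AIF, a mitochondrial flavoprotein gene, and the ETS repressor gene aop, whose log2 differences were 0.17 and -0.02. The neighbours of CG13000 are RhoGAP15B and the ubiquitin ligase gene Ubr1, at -0.32 and -0.11. For CG34214 they are ND-19, a subunit gene of respiratory complex I, and CG33228, at 0.10 and 0.30. A gene without a probe set of its own lies between CG34214 and CG33228. The nearest measured gene on one side of CG6885 is CG12477, with 4.3, 14.3 and 12.1 in yw and 32.8, 20.5 and 11.5 in the mutant. Here too a gene without a probe set of its own lies between. On the other side is the Mediator subunit gene MED11, at -0.22. CG8960 lies between CG15878, at background on all arrays, and CG5707, which had 142.2, 154.4 and 154.2 in the mutant and 88.2, 106.7 and 95.7 in yw (log2 difference 0.56, adjusted p = 0.0591, limma).

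**Figure D4:**
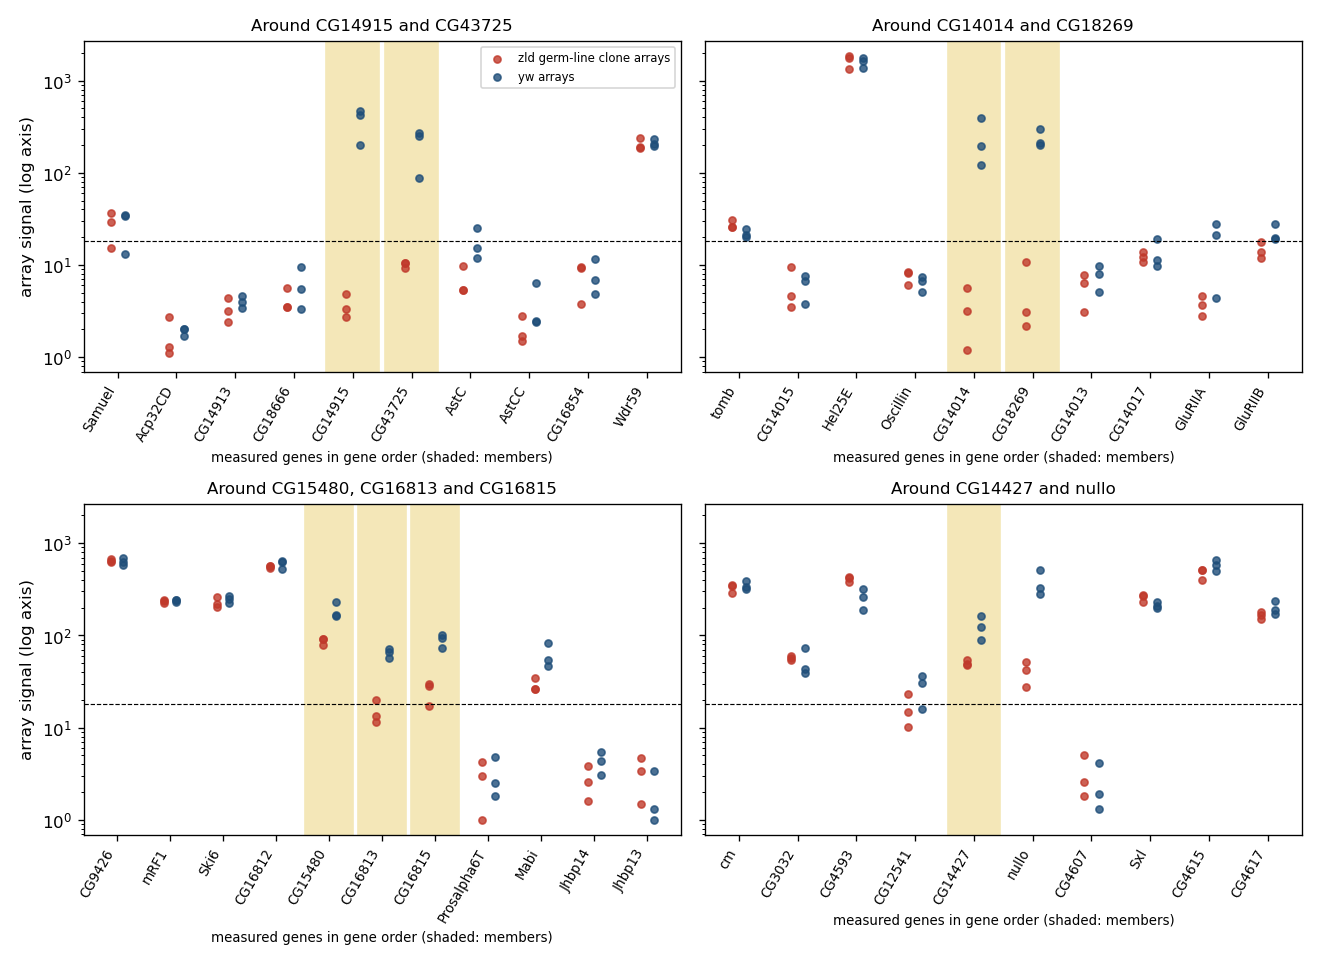
Array signals on a log axis of measured genes in their order along the chromosome around CG14915 and CG43725, CG14014 and CG18269, the row of CG15480, CG16813 and CG16815, and CG14427 with nullo, with red points for the 3 mutant arrays and blue points for the 3 yw arrays of each gene. Members are shaded and the dashed line marks a signal of 18.1. In the first pair of panels the shaded genes drop, while the bright genes Wdr59 and Hel25E have means of 204 and 1644 in the mutant and 211 and 1576 in yw. Many other unshaded genes there lie at background, where a drop could not be seen. The dim genes AstC and GluRIIA were also lower, at log2 differences of -0.54 and -0.71, without a call.

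Most members, 32 of 38, had a single probe set. The other 6 had 12 further probe sets, 7 of them for CG34353 alone. All had a log2 difference below 0, down to a size of -0.03, where the median over all probe sets was -0.05. A ratio of 0.7 or less was met by 1 of them, which was called lower (adjusted p = 0.0277, limma), and the others were not called. For CG34353, with 7 further probe sets, that 1 had 25.7, 40 and 37.7 in yw and 8.3, 7.5 and 5.6 in the mutant, while the brightest had 84.3, 59.7 and 66.5 against 53.4, 59 and 56.9, with the highest mutant just under the lowest yw signal. The levels of different probe sets cannot be set against each other, and the ratio was above 1 for 4 of the 7.

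The second probe set of CG10953 had 82.8, 199.6 and 60.8 in yw and 16.9, 61.3 and 17 in the mutant, with mutant replicate 2 level with the lowest yw array. For CG43394 the further probe set had 25.7, 20.7 and 9.6 in yw and 6.8, 1.9 and 3.2 in the mutant, and for CG43386 it had 10.8, 44.5 and 24.1 against 21.6, 25.7 and 5. CG34214 and CG10962 have further probe sets that also name a neighbour, CG4806 and a long noncoding RNA gene. These had log2 differences of -0.39 and -0.21 against -4.28 and -1.06 for the members' own probe sets, so the probe sets of each pair disagree in size.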

How the data were processed

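The table holds 1 intensity signal per probe set and array on a linear scale, which the authors made with Affymetrix's GeneChip Operating Software (GCOS), per the series text, which states no version. Leaving out the lowest and highest 2% of signals, the mean was 150.0 on all 6 arrays, so the deposited values carry a global scaling. No detection calls or scanner files were used here. The sample protocol speaks of duplicate collections and the series text of 3 biological replicates, so p-values may cover only technical spread. Median signals were 16.4 to 23.3, and 3 arrays a group limit the precision.

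Gene symbols came from the platform's annotation, updated by gene identifier to the RefSeq table of assembly GCF_000001215.4, which gave all 38 members; its coordinates were used only for gene order. For lists and neighbours the brightest probe set stood for a gene. limma 3.58.1 (R 4.3.3; lmFit, eBayes with a trend) was run on log2(signal + 16) over 18769 probe sets, so differences of dim genes are understated. On simulated arrays of 18769 probe sets limma recovered 71% of 2-fold and 97% of 4-fold changes. Of its calls there, 1.75% were probe sets that had not been changed. These changes were shifts on the log2(signal + 16) scale, with independent noise, in 200 probe sets above the median signal. The rates do not cover dimmer probe sets, and a 2-fold change of a dim signal is a smaller shift on that scale. The methods' t-test stands for the plain t-test named in the series text. It was run here with equal variances on log2(signal + 16), with Benjamini-Hochberg adjustment over all probe sets. Its counts are thus not results of the authors. Python 3.11.15, pandas 2.3.3 and matplotlib 3.10.9 made tables and figures. The members and lists were chosen with earlier results of these data known. Genes were to be named by brightness, ratio, updated symbol, neighbours, further probe sets and nearness to a threshold; the remaining members, nullo and Mabi were named after their values were seen. Promoter and protein sequences were not used here, so motif and protein length comparisons were not made.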

Additional observations from a re-analysis of the deposited data

How the results depend on the processing

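All 642 values of single members under other settings kept their direction, which the rule fixes; 114 lost a call and 22 gained one. Of the 24 called members, 10 kept the call without any 1 array and 10 without yw replicates 1 and 2, a setting added after seeing the data. The replicate number as a block gave 13 members and 76 of all probe sets called lower against 24 and 146. The deviations of same-numbered arrays had correlations of 0.147, -0.002 and -0.035. Other pairs ran from -0.118 to 0.126, and not every array was nearest to its own number. With 3 arrays a group, such values cannot show whether same-numbered arrays shared a batch, and the labels give only a number. With the dimmer probe sets left out, 264 of the 9386 probe sets tested and 34 members were called lower. The methods' t-test called 0 members, 0 of all probe sets and 0 of the early zygotic list after adjustment, with 1485 probe sets lower at an unadjusted p under 0.05. Leaving out 1 array gave 10 to 22 members, 45 to 213 probe sets, 14 to 28 early zygotic and 0 to 4 later embryo genes called, member medians of -1.32 to -1.05, and 38 to 80 probe sets meeting the rule. Without yw replicates 1 and 2 there were 10 members, 43 probe sets and 11 early zygotic genes called, a median of -0.97 and 70 probe sets meeting the rule. Pseudocounts of 1 and 64 gave medians of -1.59 and -0.71, by construction. Median centring, which moved the median difference of all probe sets by 0.157, left 23 probe sets meeting the rule. A ratio of 0.5 or 0.8 left 19 or 63, and a yw mean of 20 or 80 left 77 or 23. Comparisons of promoter motifs and protein lengths were not run. Dim members near background limit what the arrays show.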
